A study of Homo sapiens with 14 samples.

Results

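The promoters of 10 human genes of the mitotic machinery were examined in ZNF143 chromatin immunoprecipitation sequencing (ChIP-seq) data: BUB1, BUB1B, BUB3, MAD2L1, TTK, PLK1, AURKA, AURKB, CCNB1 and CDC20. The genes were chosen by name, out of 19970 protein-coding genes on the autosomes and the X chromosome. A peak was assigned to a gene when its centre lay from 2 kb upstream to 1 kb downstream of any annotated transcription start site (TSS) of that gene, and other peaks within the gene were looked for as well. This gave 11 of the 7702 protein-coding promoter peaks of untreated cells and 10 of the 10296 of treated cells. All cells were HEK293T, a human embryonic kidney line, of 1 clone in which ZNF143 carries the FKBP12F36V domain, so that the controls carry the tag as well. The 4 control samples were labelled Untreated, and the other 4 samples had received 0.5 µM dTAG-V1, a compound that directs FKBP12F36V fusions to degradation, for 30 min. All 8 samples used the Proteintech antibody against ZNF143, and the comparison addressed whether that antibody also recovers CTCF. The authors deposited 1 list of peaks per condition, 20429 peaks for untreated and 35287 for dTAG-V1 cells. Therefore the lists hold no value per replicate, no difference between the conditions could be tested, and the sequencing depth behind each list is unknown. The methods describe a stricter replicate rule for untreated peaks (found in all 4 replicates) than for dTAG-V1 peaks (found in any of the 4). It was not settled whether this filter had been applied before deposition, and such a rule would by itself change the number of peaks, the overlaps and which genes appear in 1 list alone.

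ZNF143 is a zinc finger transcription factor that binds the SBS element near the start sites of many housekeeping and cell cycle genes. The 10 genes act between entry into mitosis and the separation of sister chromatids. Cyclin B1 (CCNB1) activates CDK1 at mitotic entry, and the kinases PLK1, AURKA and AURKB then direct centrosome maturation, spindle assembly and chromosome attachment. While a kinetochore remains unattached, the kinase TTK (MPS1) directs the recruitment of the scaffold kinase BUB1 and of BUB3, BUBR1 (BUB1B) and MAD2 (MAD2L1). BUBR1, BUB3 and MAD2 form the checkpoint complex that holds CDC20. Once released, CDC20 activates the anaphase-promoting complex (APC/C), the ubiquitin ligase that marks cyclin B1 and securin for destruction. Transcription of many such genes peaks in G2 and mitosis, and their promoters commonly combine CCAAT boxes, which NF-Y binds, with a cell cycle homology region (CHR) whose core is TTTGAA.

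The peaks themselves provided the sequence patterns used below. The first SBS matrix was learned from the top decile of untreated peaks, and its letters present in at least 50% of sites read GGACTACANTTCCCAGNANGCCNN, where N is any base. A second SBS matrix, added after the data had been seen, was learned from those peaks that lacked the first pattern and read NNNNNTTCCCAGNATGCNCNGCGNNNN. The CTCF matrix, from peaks found only with dTAG-V1, read NCCACNAGGGGGCNCN. The p of a match is the chance of such a score at 1 position under the base frequencies of the genome, and it grades the match but does not test binding. The sequences at the 4 strongest promoters are given because their peaks ranked well above those of the other 6. They are 5′ to 3′ on the strand of the match, in hg38, with the best match of the first matrix in capitals for BUB1B and BUB3 and that of the second matrix for PLK1 and AURKA.
BUB1B, chr15:40160906-40161029, plus strand: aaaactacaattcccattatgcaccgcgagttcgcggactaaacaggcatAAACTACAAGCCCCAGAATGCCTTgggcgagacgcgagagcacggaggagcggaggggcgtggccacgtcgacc
BUB3, chr10:123154041-123154164, plus strand: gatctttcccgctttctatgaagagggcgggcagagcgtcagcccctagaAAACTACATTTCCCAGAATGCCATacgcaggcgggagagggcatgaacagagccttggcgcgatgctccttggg
PLK1, chr16:23678712-23678838, plus strand: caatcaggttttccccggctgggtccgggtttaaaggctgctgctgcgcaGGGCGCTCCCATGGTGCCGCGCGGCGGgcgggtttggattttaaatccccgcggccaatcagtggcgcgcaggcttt
AURKA, chr20:56392368-56392494, plus strand, antisense to the gene: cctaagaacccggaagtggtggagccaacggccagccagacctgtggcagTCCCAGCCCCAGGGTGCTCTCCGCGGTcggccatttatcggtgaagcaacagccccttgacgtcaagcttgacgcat

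BUB1B, BUB3 and PLK1 carried peaks in the highest decile of both lists, AURKA stood next, and the other 6 genes had weak peaks or none. A promoter peak was found for 9 of the 10 genes in the untreated list, where 40.5% of all protein-coding genes had one. The dTAG-V1 list held a promoter peak for all 10 genes, against 48.2% of protein-coding genes. Of the 10 genes, 9 had a peak in both lists (37.2% of all genes). Only TTK was found in the dTAG-V1 list alone (11.1% of all genes), none was found in the untreated list alone (3.37%), and none lacked a peak in both (48.4%). Presence in the dTAG-V1 list alone cannot be told apart here from the possible difference in the replicate rule. Among untreated peaks, the highest decile included promoter peaks of 3 of the 10 genes (10.1% of all genes), and that of the dTAG-V1 list included 4 (13.4%). These 3 genes were in the highest decile of both lists, as were 9.88% of all genes. Neither list had any further peak in the body of these genes, against 18.6% of protein-coding genes with one in untreated cells and 30.6% with dTAG-V1. The 10 genes are 4223 to 60101 bp long. These shares were not matched for gene length, and the absence was not tested.

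**Figure D1:**
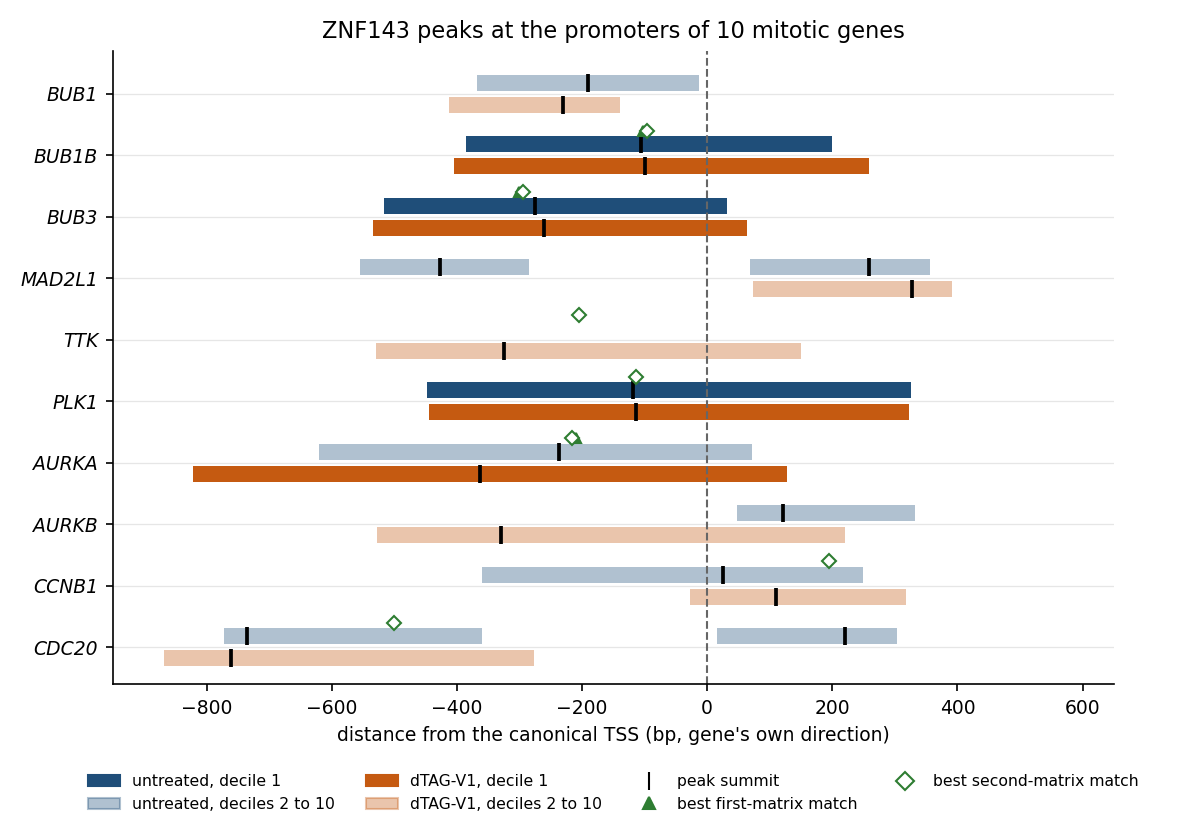
Peaks of the untreated (blue) and dTAG-V1 (orange) lists at the 10 promoters, as distance in bp from the canonical TSS in the direction of the gene. Bars span the peaks, dark bars are peaks in the highest decile of their list, black ticks are summits and green marks are the best matches of the SBS matrices at p 1e-05. The dark bars of BUB1B, BUB3 and PLK1 coincide between the lists, while the summits of AURKB lie 450 bp apart.

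BUB3, which carries BUB1 and BUBR1 to kinetochores, had the strongest peak of the 10 genes in both lists. The untreated peak (chr10:123153885-123154432) had a fold enrichment of 37.9 over the local background and a −log10 q of 11872, and ranked 148 among the 20429 peaks. The dTAG-V1 peak (chr10:123153869-123154465) had a fold enrichment of 34.7 and a −log10 q of 6455, and ranked 64 among the 35287. These values are on the scale of their own list, so that they are given side by side as ranks and not compared. The summits lay 275 bp and 261 bp upstream of the TSS.

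BUB1B encodes BUBR1, the part of the checkpoint complex that blocks APC/C. Its untreated peak (chr15:40160684-40161267) had a fold enrichment of 37.0 and a −log10 q of 7588 at rank 396. Its dTAG-V1 peak (chr15:40160665-40161326) had a fold enrichment of 31.8 and a −log10 q of 2478 at rank 410. The longer dTAG-V1 peak covered the untreated one entirely, and the summits, 106 bp and 99 bp upstream of the TSS, differed by 7 bp.

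PLK1, the Polo-like kinase that acts from mitotic entry to cytokinesis, had peaks of lower rank, and here the dTAG-V1 peak lay within the untreated one. The untreated peak (chr16:23678441-23679214) had a fold enrichment of 31.1, a −log10 q of 3541 and rank 960. The dTAG-V1 peak (chr16:23678444-23679211) had a fold enrichment of 22.9, a −log10 q of 780 and rank 1062. Their summits were 119 bp and 113 bp upstream of the TSS. For comparison, promoter peaks in the highest decile had a median fold enrichment of 29.6 in the untreated and 17.6 in the dTAG-V1 list.

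AURKA, the centrosomal Aurora kinase, was the 4th gene by rank and the only one of the 10 whose peak also lay in the promoter window of another protein-coding gene. CSTF1, which encodes a subunit of the cleavage stimulation factor, starts 430 bp upstream of AURKA on the opposite strand. A protein-coding TSS on the opposite strand within 1 kb was present at 9.49% of protein-coding genes. The untreated peak (chr20:56392144-56392835) had a fold enrichment of 14.2 and a −log10 q of 303 at rank 2634, within the second decile. The dTAG-V1 peak (chr20:56392088-56393035) had a fold enrichment of 6.67 and a −log10 q of 68.6 at rank 2738, in the first decile of the longer list. The untreated summit lay 236 bp upstream of AURKA and the dTAG-V1 summit 363 bp upstream, a displacement of 127 bp towards CSTF1. From the CSTF1 start site, the summits were 194 bp and 67 bp upstream. Over the 812 promoter peaks of the second decile with a single counterpart, the median displacement was 19 bp, with quartiles of 8 and 50.2 bp.

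**Figure D2:**
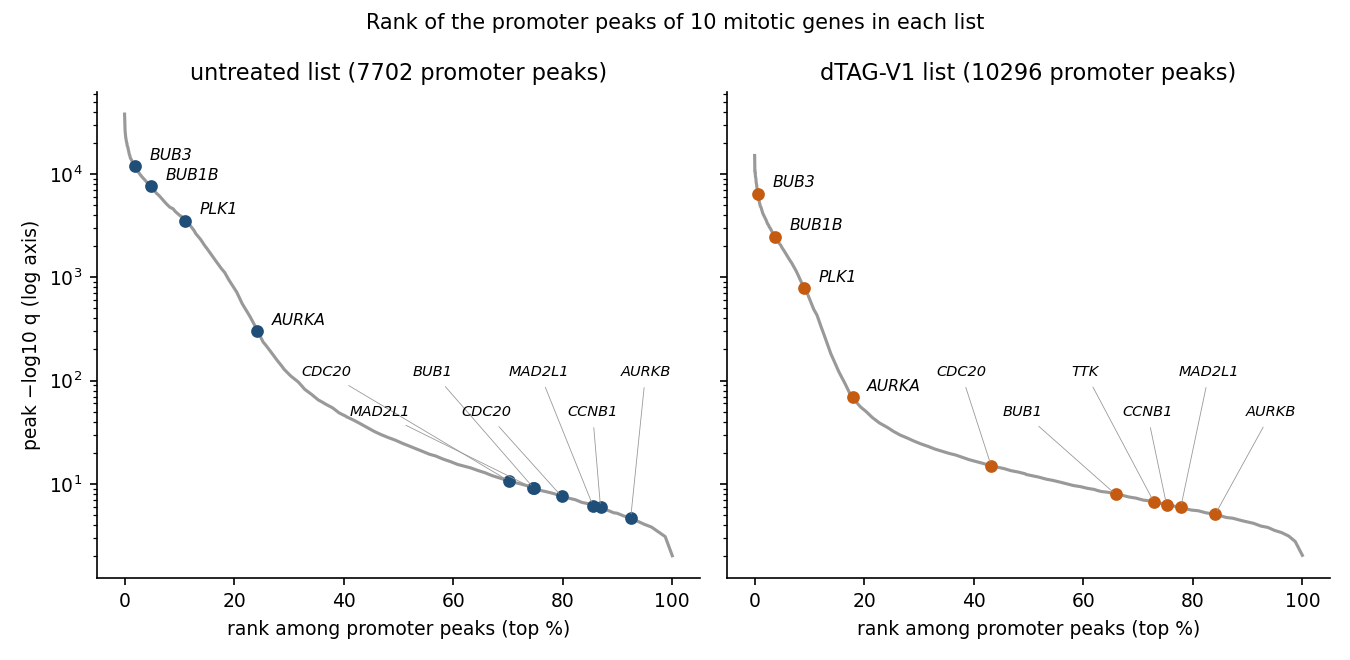
−log10 q (log axis) of every protein-coding promoter peak against its rank in percent (grey line), with the peaks of the 10 genes as points, for the untreated (left) and dTAG-V1 (right) lists. BUB3, BUB1B, PLK1 and AURKA lie on the steep part of the curve, and the remaining points lie at a −log10 q of 14.9 or less.

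The remaining checkpoint genes had weak peaks. BUB1, the kinase that marks inner centromeres, had an untreated peak (chr2:110678076-110678429) with a fold enrichment of 3.19 and a −log10 q of 9.08 at rank 13872. Its dTAG-V1 peak (chr2:110678202-110678475) had a fold enrichment of 3.05 and a −log10 q of 7.91 at rank 22939. Both summits were upstream of the gene, at 191 bp and 231 bp. Both peaks were in the seventh decile of their list.

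MAD2L1 encodes MAD2, the protein that closes around CDC20. It had 2 untreated peaks, one in intron 1 (chr4:120066492-120066779) with a fold enrichment of 2.46 and a −log10 q of 6.16, and one upstream (chr4:120067133-120067403) with a fold enrichment of 2.77 and a −log10 q of 9.13. The dTAG-V1 list held a single peak in intron 1 (chr4:120066456-120066773), with a fold enrichment of 2.27 and a −log10 q of 5.91. The upstream peak, 427 bp before the TSS at its summit, had no counterpart with dTAG-V1.

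TTK, the kinase at the top of the checkpoint, had no untreated peak within 50 kb of its canonical start site. Its dTAG-V1 peak (chr6:80004121-80004799) had a fold enrichment of 2.63 and a −log10 q of 6.65 at rank 25400, and its summit lay 325 bp upstream. The nearest untreated peak was centred 101634 bp downstream of the start site. The call threshold was a q of 0.01, and whether binding differed at TTK could not be tested.

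CDC20, the target of the checkpoint, was the only one of the 6 genes whose dTAG-V1 peak stood above the middle of the list. In untreated cells, 1 peak lay upstream (chr1:43358209-43358620), with a fold enrichment of 2.99 and a −log10 q of 7.54 at rank 15117. The other overlapped exon 2 in the 5′ UTR at its summit (chr1:43358996-43359283), with a fold enrichment of 3.38 and a −log10 q of 10.7 at rank 12700. With dTAG-V1, the upstream peak was called again (chr1:43358113-43358703), with a fold enrichment of 3.74 and a −log10 q of 14.9 at rank 13658, and the peak within the gene was not.

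AURKB, the catalytic subunit of the chromosomal passenger complex, had the lowest −log10 q of the 10 genes in both lists, at 4.66 and 5.07. The untreated peak (chr17:8210243-8210526), with a fold enrichment of 2.45 at rank 18330, had its summit in intron 1, 121 bp downstream of the TSS. The dTAG-V1 peak (chr17:8210355-8211102), with a fold enrichment of 2.51 at rank 29170, had its summit 329 bp upstream. The 2 peaks overlapped by 172 bp although their summits were 450 bp apart.

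At CCNB1, the untreated peak (chr5:69166790-69167398) had a fold enrichment of 2.59 and a −log10 q of 5.91 at rank 16938. The dTAG-V1 peak (chr5:69167123-69167467) had a fold enrichment of 2.59 and a −log10 q of 6.29 at rank 26159. Both summits lay in exon 1 within the 5′ UTR, 26 bp and 110 bp downstream of the TSS. All promoter peaks in deciles 6 to 10 had a median fold enrichment of 2.75 in the untreated and 2.57 in the dTAG-V1 list, and the weak peaks of the 10 genes, at 2.27 to 3.74, were near these values.

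Most peaks of the 10 genes, strong and weak, overlapped a peak of the other list. Of the 11 untreated peaks, 9 overlapped a dTAG-V1 peak by 1 bp or more, against 84.2% of all untreated promoter peaks. Of the 10 dTAG-V1 peaks, 9 overlapped an untreated peak, against 62.6% of all dTAG-V1 promoter peaks. For promoter peaks in deciles 6 to 10, these shares were 76.4% and 39.3%. Both counts of 9 include the strong peaks of BUB1B, BUB3, PLK1 and AURKA. The peaks without a counterpart, at MAD2L1, CDC20 and TTK, were weak. The summits differed by 7, 14 and 6 bp at BUB1B, BUB3 and PLK1, where the median over the first decile was 4 bp (1578 pairs) with quartiles of 1 and 10 bp. They differed by 25 bp at CDC20, 40 bp at BUB1, 68 bp at MAD2L1, 84 bp at CCNB1 and 450 bp at AURKB, where the median over deciles 6 to 10 was 70.5 bp (2206 pairs) with quartiles of 25 and 183 bp. The displacements of AURKB, AURKA and BUB3 exceeded the upper quartile of their deciles, and those of CDC20, BUB1, MAD2L1 and CCNB1 lay within the quartiles.

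The first SBS matrix matched at the summits of BUB1B and BUB3, each with 2 sites. The better BUB1B site, printed in capitals above, had a match p of 1.3e-09 and was centred 102 bp upstream of the TSS, 4 bp from the untreated summit. The other, AAACTACAATTCCCATTATGCACC, had a match p of 3.2e-09, was centred 150 bp upstream and ran in the same direction. The better BUB3 site had a match p of 4.6e-11, 300 bp upstream of the TSS and 24 bp from the untreated summit, and differed from the common pattern at 2 of 19 fixed letters. The second BUB3 site, AAACTACACCTCCCAAGGAGCATC, had a match p of 3.4e-08 and lay 238 bp upstream in the opposite direction, so that the untreated summit fell between the pair. In AURKA, the only match at p 1e-05 was weaker, with a p of 7.6e-06 and 8 of 19 fixed letters different, and lay 26 bp from the untreated summit and 152 bp from the dTAG-V1 summit.

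PLK1 ranked in the first decile without a match of the first matrix at p 1e-05. Its best match, at a p of 1.9e-05, lay 232 bp from the untreated summit. The second matrix, by contrast, matched 5 bp from the untreated summit and 1 bp from the dTAG-V1 summit with a p of 7.1e-10, the best match of this matrix among the 10 genes. PLK1 lies on an even-numbered chromosome, and the matrix had been learned on odd-numbered ones. On the even-numbered autosomes, 96.0% of the 150 untreated promoter peaks of the first decile that lacked the first pattern held the second, as did 92.1% of all 620 first-decile promoter peaks there. However, the second matrix also matched 57.1% of all untreated promoter peaks, so that a match of it at lower ranks says less. It matched at TTK with a p of 7.8e-08, 120 bp from the summit, at CCNB1 with 3.6e-06, 168 bp from the untreated and 84 bp from the dTAG-V1 summit, and at CDC20 with 9.2e-06, 235 bp from the untreated summit.

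At p 1e-05, the first matrix matched 3 of the 11 untreated and 3 of the 10 dTAG-V1 peaks, against 26.1% and 19.8% of all promoter peaks. All 3 were the peaks of BUB1B, BUB3 and AURKA. In the first decile 76.2% of untreated and 62.2% of dTAG-V1 promoter peaks held such a match, and in deciles 6 to 10 the shares were 7.9% and 6.89%. The matrix was learned from first-decile untreated peaks of odd-numbered autosomes, so that this contrast was partly set in advance. On the even-numbered autosomes, 150 of the 620 first-decile untreated promoter peaks lacked a match. BUB1B, on chromosome 15, was among the learning peaks. A matrix learned likewise on even-numbered autosomes gave its best site the same p of 1.3e-09. At p 5e-05, matches of the first matrix were found in 5 of the 11 and 5 of the 10 peaks, against 46.3% and 38.5%. The additional peaks were those of PLK1 in both lists, BUB1 in the untreated and AURKB in the dTAG-V1 list.

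**Figure D3:**
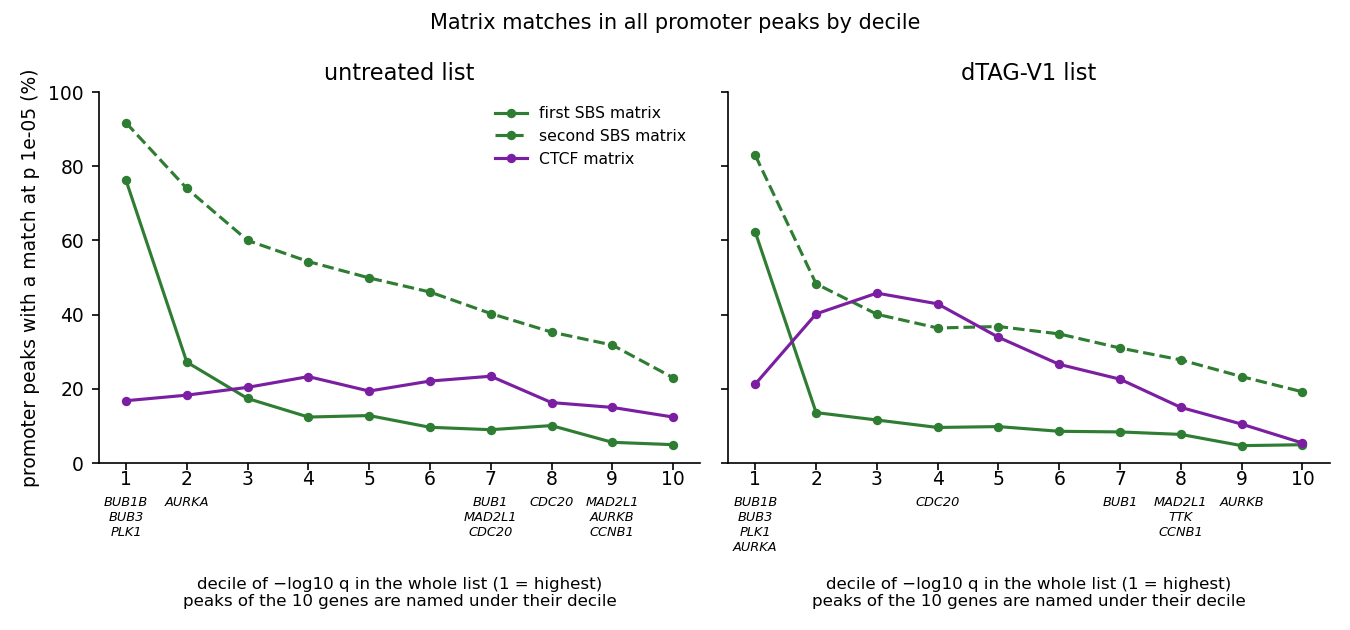
Share of promoter peaks with a match at p 1e-05 (y axis, %) for the first SBS, second SBS and CTCF matrices, by decile of −log10 q in the untreated (left) and dTAG-V1 (right) lists, with the peaks of the 10 genes named under their decile. The first SBS matrix drops from 76.2% in the first untreated decile, which holds BUB1B, BUB3 and PLK1, to 4.96% in the last. Both SBS matrices were learned from peaks of the first untreated decile.

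The share of these promoter peaks with a CTCF match depended on the match threshold. At p 1e-05 the CTCF matrix matched 1 of the 11 untreated peaks and 0 of the 10 dTAG-V1 peaks, against 18.6% and 24.9% of all promoter peaks. The match was in the CDC20 peak within the gene, at the summit itself, with a p of 7e-06. This was one of the 2 untreated peaks without a dTAG-V1 counterpart. At p 5e-05 the counts were 6 of 11 and 3 of 10, against 38.8% and 43.2%. Outside the promoter windows of the 10 genes, a CTCF match at p 1e-05 was present in the nearest other dTAG-V1 peak of BUB1, BUB3, MAD2L1, TTK and AURKA. For BUB1, BUB3 and TTK this peak was distant, centred 133939, 21287 and 55249 bp upstream, and that of TTK lay in the promoter window of ELOVL4. At AURKA the nearest other peak was centred 7967 bp upstream with dTAG-V1 and was in both lists. It had a fold enrichment of 3.08 at rank 14067 in untreated cells and of 5.35 at rank 4413 with dTAG-V1. At MAD2L1 the nearest other dTAG-V1 peak was centred 4585 bp upstream and was called with dTAG-V1 alone, with a fold enrichment of 2.85. In the untreated list, the nearest other peaks of BUB1 and AURKA also held a CTCF match at p 1e-05. The matrix was learned from peaks found only with dTAG-V1, and the share of all other peaks with a match was not counted.

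The surroundings of BUB3 and CCNB1 held strong peaks of their own, which were singled out after their values had been seen. An untreated peak 21090 bp downstream of the BUB3 start site (chr10:123175236-123175747), beyond the end of the gene, had a fold enrichment of 13.0 and a −log10 q of 182 at rank 3127, with a match of the first SBS matrix. No dTAG-V1 peak was called at this position, whereas 76.8% of untreated peaks in the second decile overlapped a dTAG-V1 peak. The promoter of CENPH, which encodes a kinetochore protein, lies 22519 bp downstream of the CCNB1 start site at its peak centre. It had a fold enrichment of 21.0 at rank 1963 in untreated cells and of 5.23 at rank 3807 with dTAG-V1, also with a first-matrix SBS match, which the CCNB1 promoter peaks lacked. BUB1B and PLK1 had strong neighbouring peaks too, without a first-matrix match at p 1e-05. That of BUB1B, at the BMF promoter 51926 bp upstream, had a fold enrichment of 27.4 at rank 1688 in untreated cells and of 28.2 at rank 696 with dTAG-V1. That of PLK1, at the promoters of DCTN5 and PALB2, had a fold enrichment of 10.1 at rank 3388 in untreated cells.

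In their sequence, most of the 10 promoters held the CHR core and CCAAT, at genes with strong and with weak peaks. TTTGAA, on either strand from 250 bp before to 50 bp after the TSS, was present in 8 of the 10, against 11.5% of protein-coding promoters, and was missing at BUB1 and CCNB1. CCAAT was present in 9 of the 10, against 36.0%, and was missing at BUB1B. At BUB3, TTK, AURKA, CCNB1, CDC20 and BUB1 it occurred 2 times, and at AURKB 3 times. ACTTCCGG, an ETS-type sequence, was present at AURKA alone, against 6.15% of promoters. A first-matrix SBS match was present in 3 of these 300 bp windows, at BUB1B, BUB3 and AURKA, against 10.9%. The median GC content was 61.4%, compared with 63.7% over all promoters, and the observed-to-expected CpG ratio was 0.903, compared with 0.776. The motifs were chosen because of the known regulation of these genes, and their presence shows only that the letters occur.

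Counted in bp from the TSS, TTTGAA started at -23 in BUB1B, -29 in PLK1, -39 in AURKB and -64 in BUB3. In CDC20 it started at -178 and -65, and in MAD2L1 at 24, within the transcribed part. In TTK and AURKA it started at -2 and -3, so that its 6 letters spanned the start site. In BUB1B and BUB3 the element lay between the TSS and the first-matrix SBS matches, which were centred 102 to 300 bp upstream. In PLK1 it lay between the TSS and the best second-matrix match, centred 114 bp upstream. Weaker second-matrix matches of PLK1 were centred 61, 91 and 100 bp downstream of the TSS, so that the element did not lie between them and the TSS. For 3 promoters without a first-matrix match, the 150 bp before the TSS are given on the sense strand in hg38, with TTTGAA and CCAAT (or their reverse complements) in capitals, to show the spacing of these letters.
CDC20, chr1:43358831-43358980, plus strand: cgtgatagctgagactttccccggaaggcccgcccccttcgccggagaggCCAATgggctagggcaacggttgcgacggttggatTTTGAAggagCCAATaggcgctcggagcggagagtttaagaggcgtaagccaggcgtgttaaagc
AURKB, chr17:8210576-8210725, minus strand: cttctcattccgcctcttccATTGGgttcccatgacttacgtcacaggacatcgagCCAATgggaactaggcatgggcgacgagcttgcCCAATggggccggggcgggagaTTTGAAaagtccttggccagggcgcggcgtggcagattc
CCNB1, chr5:69167000-69167149, plus strand: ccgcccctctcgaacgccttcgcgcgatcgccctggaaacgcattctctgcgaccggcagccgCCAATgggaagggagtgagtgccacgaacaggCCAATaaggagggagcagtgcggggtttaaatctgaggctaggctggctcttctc
Within these 150 bp, TTTGAA lay between the CCAAT boxes in CDC20 and downstream of them in AURKB, and CCNB1 had the CCAAT pair without TTTGAA. Only these exact letters were searched, so that other forms of a CHR were not counted.

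Several of the promoters were bidirectional in the annotation. Long non-coding RNAs started on the opposite strand 162 bp upstream of BUB1 (ENSG00000289202), 116 bp upstream of MAD2L1 (MAD2L1-DT), 201 bp upstream of CCNB1 (ENSG00000248664) and 305 bp upstream of CDC20 (CDC20-DT). With CSTF1 at AURKA, 5 of the 10 genes thus shared their promoter peaks with another annotated start site. The share of all protein-coding genes with a non-coding start so placed was not counted. The count is therefore not read as a trait of these genes. A peak cannot be assigned to one or the other start site of such a pair.

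The other genes of the pathway were taken from a list of 71 genes in 7 roles. The list was named from textbook roles but chosen with earlier results of these data known. Its shares therefore describe the list and are not a test. Promoter peaks were present at 57 of the 71 genes (80.3%) in untreated cells and 62 (87.3%) with dTAG-V1, against the 40.5% and 48.2% of all protein-coding genes given above. All 57 were in both lists, 5 were in the dTAG-V1 list alone and 9 in neither. Peaks of the highest decile were found at 24 genes (33.8%) in the untreated and 30 (42.3%) in the dTAG-V1 list, against 10.1% and 13.4%. Of these, 17 of 24 and 20 of 30 held a match of the first SBS matrix, compared with 5 of the 33 and 4 of the 32 genes with lower peaks. Over all promoter peaks, such a match was held by 76.2% and 62.2% in the first decile. These shares fell from 27.2% and 13.6% in the second decile to 4.96% and 4.94% in the last. The contrast between high and low peaks was thus present over all promoter peaks and is not read as a trait of the list. That contrast was also partly set in advance, because the matrix was learned from first-decile peaks. Expression was not measured here, and whether these shares differ from those of other expressed genes was not tested.

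**Figure D4:**
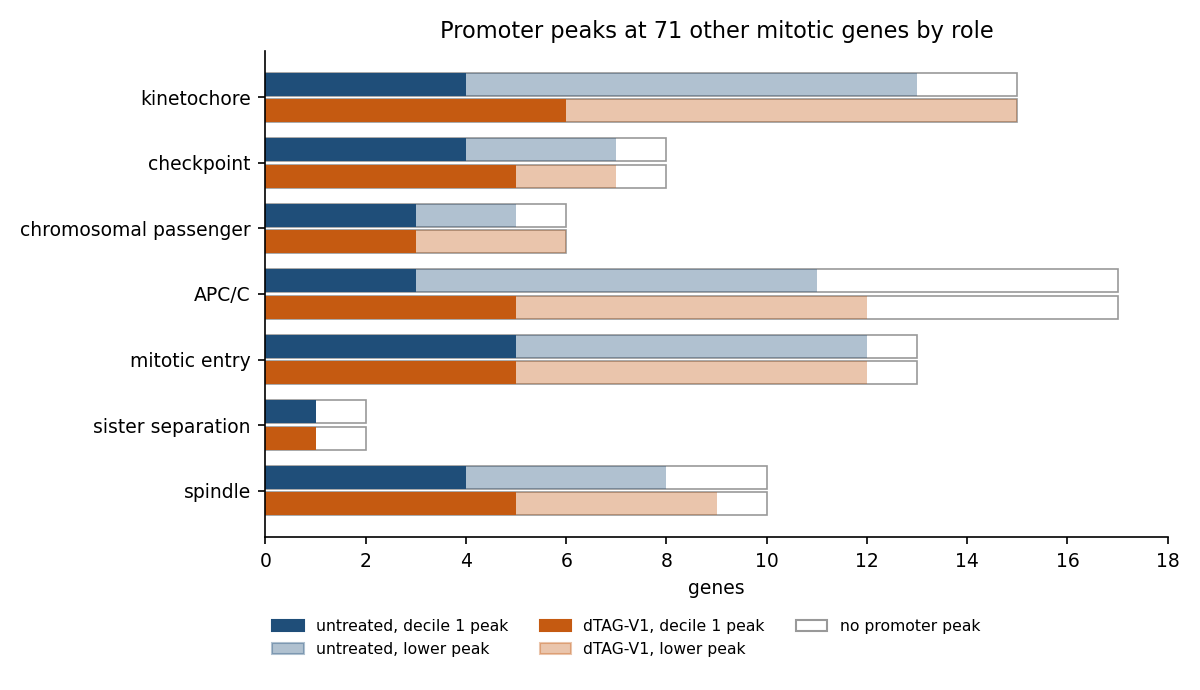
Number of genes per role (x axis) among 71 other mitotic genes with a promoter peak in the highest decile (dark), a lower peak (light) or no peak (white), for the untreated (blue) and dTAG-V1 (orange) lists. All 15 kinetochore genes had a dTAG-V1 peak, and 5 of the 17 APC/C genes had none in either list.

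By role, peaks in both lists were found at 13 of 15 kinetochore genes, 7 of 8 checkpoint genes, 5 of 6 chromosomal passenger genes, 12 of 13 mitotic entry genes, 8 of 10 spindle genes, 11 of 17 APC/C genes and 1 of 2 genes of sister separation. MAD2L1BP, whose product (p31comet) removes MAD2 from the checkpoint complex, ranked 98 without treatment, with a fold enrichment of 33.4, and 165 with dTAG-V1, with a fold enrichment of 29.0. The peaks of MAD2L1 itself ranked no higher than 13830. ZW10, which recruits dynein to kinetochores, ranked 234 and 250, and the nuclear pore protein TPR, a scaffold for MAD1 and MAD2, ranked 863 and 615. Among regulators of mitotic entry, the CDK1-activating phosphatases CDC25C and CDC25A ranked 151 and 432 in the untreated and 200 and 948 in the dTAG-V1 list, and GTSE1 ranked 739 and 379.

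Of the partners of AURKB in the chromosomal passenger complex, BIRC5 (survivin) ranked 494 and 635, CDCA8 (borealin) 778 and 195, and INCENP 938 and 848. All 3 were in the first decile of both lists and held a first-matrix SBS match, whereas the AURKB peaks were in the ninth decile. The AURKA activator TPX2 ranked 844 and 1038, the kinesin KIF20A 241 and 183, and the spindle pole protein NUMA1 792 and 772. The kinetochore genes CENPT and SPC25 ranked 382 and 915 in the untreated and 417 and 836 in the dTAG-V1 list, and the APC/C subunit CDC26 ranked 665 and 252. The genes without a peak in either list were TRIP13, ANAPC2, ANAPC4, ANAPC11, CDC16, UBE2C, CCNA2, PTTG1 and KIF18A. SPC24, CENPA, HASPIN, ANAPC16 and NUSAP1 resembled TTK in having a dTAG-V1 peak alone, and these peaks were in deciles 5 to 9.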

How the data were processed

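ZNF143 ChIP-seq was available for 4 untreated and 4 dTAG-V1 samples out of 14 samples, and the CTCF samples were not analysed here. According to the methods and the labels, the authors mapped reads to hg38 with BWA, removed duplicates with Picard and called narrow peaks with MACS2 at a q-value of 0.01. The methods keep untreated peaks found in each replicate and dTAG-V1 peaks found in any replicate, and how replicates entered the deposited lists was not settled. Per replicate columns left unused number 0. In the deposited files, the score is the integer that MACS2 wrote, the fold enrichment is a ratio over the local background, and the q-values are given by the authors as −log10. For the HEK293T peak calls, the methods name no input control, and no input is among the 14 samples. Peak names in the untreated file refer to DMSO, and the labels were followed.

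Peaks were ranked by −log10 q within each list and assigned with GENCODE release 44 (Python 3.11.15, numpy 2.4.6, pandas 2.3.3, numba 0.67.0, pysam 0.24.0 and samtools 1.23.1). Matrices were seeded with the most enriched 8-mer within 50 bp of summits on odd-numbered autosomes, relative to flanks 1000 bp away, and refined over 10 rounds with a pseudocount of 0.8 and sites at p 1e-05. The procedure was tested on simulated data. The text names all 10 genes, the genes that share their peaks, and at most 15 pathway genes by rank in addition to those without a peak in a list. Genes and lists were chosen with earlier results of these data known. No test was made, and the alternatives tried are given in the closing section.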

Additional observations from a re-analysis of the deposited data

How the results depend on the processing

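No paired analysis was possible because each condition has 1 deposited list without replicate values, and leaving out a replicate likewise gives no value. The replicate rule behind each list was not settled, and all counts of presence and absence rest on it. With a −log10 q of at least 5, 2 of the 10 genes were in 1 list only (1 as reported), as were 9 genes of the pathway list (5 as reported). At a −log10 q of at least 10, 5 genes remained in the untreated list, 5 in the dTAG-V1 list, 5 in both and 0 in 1 list only, against 9, 10, 9 and 1. At that limit 31.6% and 32.1% of all protein-coding genes had a promoter peak in the untreated and dTAG-V1 lists. With windows of 500 bp on each side of a TSS, 2 genes were in 1 list only. SBS matches at p 1e-05 were found in 3 untreated and 3 dTAG-V1 peaks (5 and 5 at p 5e-05), and in 2 dTAG-V1 peaks within 100 bp of the summit. The second SBS matrix, chosen after seeing the data, matched 8 and 9 peaks at p 5e-05, where its share of all promoter peaks was not counted. At p 1e-05 it matched 6 untreated peaks, against 57.1% of all untreated promoter peaks. It also matched 7 dTAG-V1 peaks, where its share of promoter peaks ran from 82.9% in the first decile to 19.2% in the last. The share over all dTAG-V1 promoter peaks together was not counted. CTCF matches were found in 1 untreated peak at p 1e-05 and 3 within 100 bp of the summit (6 as reported), and in 0 dTAG-V1 peaks at p 1e-05 and 5 at p 1e-04 (3 as reported). Peaks of both lists overlapped by at least 50% of each peak at 7 genes, and had summits within 100 bp at 7 genes, against 9 with any overlap. The shares of all genes with such overlaps, or in 1 list only under the changed settings, were not counted. Depth per library is unknown, so weak peaks near the threshold limit what presence or absence shows.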
